A study of Mus musculus with 140 samples.

Results

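The comparison described here sets the microdissected peritubular capillary region of the healthy mouse kidney against the whole kidney of the same mice. Its members are 8 libraries of 140 in the series, 4 labelled peritubular capillaries and 4 labelled whole kidney. The number in each title, shared by both tissues and taken here as the mouse, pairs them into 4 mice. All were male wild-type C57BL6/OlaHsd mice, labelled healthy controls at 0 h, with no surgery or treatment given in the labels. Per the labels the capillary samples were cut by laser, from kidney cortex, and the whole kidney samples were not microdissected, so the region and the way it was collected cannot be told apart. The series as a whole follows genes of coagulation and inflammation through 5 kidney compartments during sepsis, and 4 further mice, sham-operated and examined at 4 h, serve here as a second set of controls. The sham mice share strain, sex and genotype with the healthy ones.

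Peritubular capillaries form a mesh around the tubules of the cortex and take back the fluid and solutes that the tubule reabsorbs. Each capillary is a thin layer of endothelium that lies against the outer side of the tubule epithelium. In the cortex that epithelium is mostly proximal tubule, with distal convoluted tubule, connecting tubule, cortical thick ascending limb and cortical collecting duct between, while thin limbs, inner medullary collecting duct, papilla and pelvis lie deeper. The question answered is which tubule segments and which vessel transcripts the cut region gained or lost against the organ.

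Library totals ran from 6864858 to 10585288 counts in the region and from 7654464 to 12283098 in whole kidney. Between 11443 and 13121 genes had a count in a region library and between 18272 and 20474 in a whole kidney library. After all 8 libraries were thinned to the smallest total these ranges were 11112 to 12791 and 18056 to 19409. The biological coefficient of variation, the spread between mice beyond counting noise, was 1.45 among the 4 region libraries and 0.198 among the 4 whole kidney libraries. Region libraries correlated with each other across genes at 0.608 to 0.685 (log2 scale), below the 0.703 to 0.798 between region and whole kidney and the 0.964 to 0.986 between whole kidney libraries. Genes are not independent replicates, and these values are descriptions. The region library of mouse 4 stood apart, with the fewest detected genes and a scaling factor of 0.682 against 0.874 to 0.977 in mice 1 to 3. Results that rest on it are given without it too.

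Low transcripts were often missed by the region libraries. Levels are given as CPM, counts scaled to the library total by edgeR's TMM method. Of genes with a mean of 2 to 5 CPM in whole kidney, 48.9% had no count in the region library of mouse 4 and 31.2% to 35.8% had none in those of mice 1 to 3. Of genes at 50 to 200 CPM, 0.0476% had none in the region library of mouse 1 and no gene lacked counts in those of mice 2 to 4. The statements that follow therefore lean on abundant transcripts, and values of low ones are given per mouse.

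**Figure D1:**
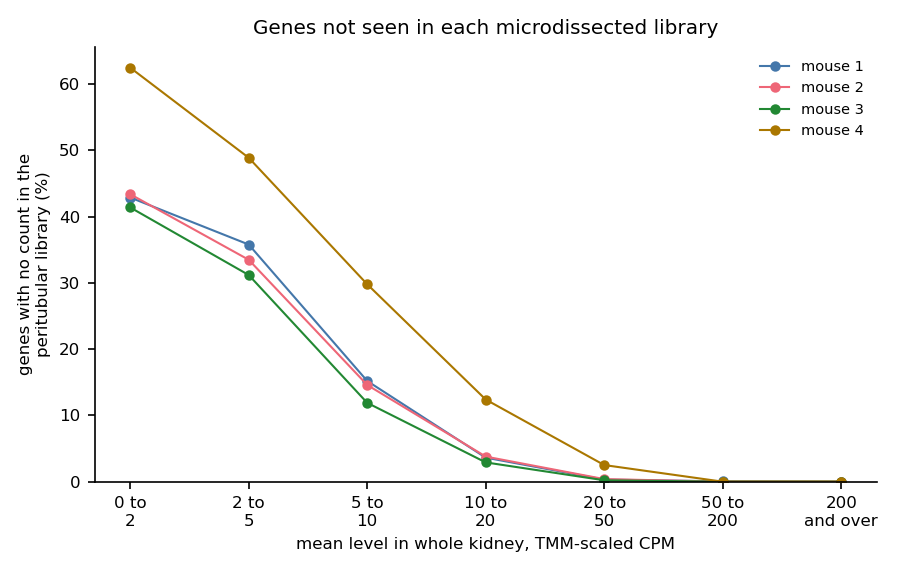
Share of tested genes (percent, vertical axis) with no count in the peritubular region library of each of 4 healthy mice (1 line per mouse), by the mean level of the gene in whole kidney (TMM-scaled CPM, horizontal axis, 7 bins). The line of mouse 4 lies above the others in the bins under 50 CPM, and all lines are near 0 above that level.

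Across the transcriptome 12705 genes could be tested (edgeR quasi-likelihood test with the mouse as a block, Benjamini-Hochberg adjusted p under 0.05). In the region 268 were higher (2.11% of those tested) and 726 were lower (5.71%). In 6.11% of the genes all 4 region libraries lay above all 4 whole kidney libraries, and in 15.5% all lay below. The gains were abundant transcripts, since 266 of the 268 had a mean of at least 20 CPM in the region. By whole kidney level, 0.496% of genes were higher at 20 to 50 CPM. At 50 to 200 CPM 5.28% were, and at 200 CPM or more 24.6%. The losses were mostly low ones, with 678 of the 726 under 10 CPM in whole kidney and 165 without a count in any region library. Those 165 were all the tested genes without a count in any region library. A gene could enter the test through its counts in 1 tissue alone. Of the genes tested, 12701 had counts in all 4 whole kidney libraries and 8989 in all 4 region libraries. The number of losses, the share of genes lying below and the median over all tested genes depend on this filter. The median log2 fold change over all tested genes was -1.03, and over the 8288 tested genes that averaged 10 CPM or more it was -0.17. Of those abundant genes 266 were higher and 39 lower. Without mouse 4 there were 130 higher and 18 lower genes, and without mouse 3 there were 119 and 305, so the number of losses rested on single libraries. Without the mouse as a block 363 genes were higher and 1051 lower, and the median moved to 0.19. With library totals alone in place of TMM, an alternative added after the data had been seen, there were 123 higher and 857 lower genes, and the median was -1.42.

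The proximal tubule, the epithelium that recovers most of the filtered water, salt, glucose, amino acids and protein, gave the clearest gain. Of a list of 20 genes used along the whole proximal tubule, 9 rose (45.0%) and none fell. Over all genes 2.11% were higher, and 24.6% of those at 200 CPM or more in whole kidney. The list's median log2 fold change was 0.69 (-1.03 for all genes tested and -0.17 for abundant genes). Together the 20 genes took 7.69%, 8.56%, 9.67% and 8.98% of all counts in the region libraries of mice 1 to 4 and 5.29% to 5.67% in whole kidney. The means were 8.73% ± 0.825 and 5.52% ± 0.162 (SD, n = 4). The 2 ranges did not overlap. Most of each share was Kap. It alone took 5.16%, 5.7%, 6.68% and 6.07% of counts in the region and 3.25% to 3.53% in whole kidney. Over 14 alternative settings the list's median stayed between 0.27 and 0.89, and from 1 to 10 of its genes were called higher. In bulk samples, more tubule cells in the cut and more RNA of these genes per cell cannot be told apart.

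Kap (Ensembl ENSMUSG00000032758, chr6:133849851-133853762, GRCm38), an androgen-dependent protein of the male mouse proximal tubule, was the most abundant gain. It had 54120, 58320, 76450 and 88950 CPM in the region libraries of mice 1 to 4 and 28140, 29970, 29810 and 29390 CPM in whole kidney. Every region library stood above every whole kidney library, and the log2 fold change was 1.21 ± 0.14 (SE; edgeR quasi-likelihood, adjusted p = 3.7e-14). Without the mouse block it was 1.24 (edgeR, adjusted p = 0.00769), and Kap was called in 13 of 14 alternatives. Slc34a1 (chr13:55398187-55415592), the sodium-phosphate cotransporter of the brush border, had 6244, 7182, 10410 and 13810 CPM against 3026, 2739, 2873 and 2814 CPM. Its whole kidney values lay within a narrow band that the lowest region library exceeded more than 2-fold, and it rose by 1.65 ± 0.19 (edgeR, adjusted p = 5.66e-15). Lrp2 (chr2:69424340-69586065), which encodes megalin, the receptor for filtered proteins, had 946, 864, 1490 and 1673 CPM against 718, 518, 635 and 592 CPM and rose by 0.97 ± 0.25 (edgeR, adjusted p = 0.00394). All region libraries were again above all whole kidney libraries for Lrp2, though its call was lost without mouse 3 or mouse 4 (0.79, adjusted p = 0.0683 by edgeR without mouse 4).

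Acsm2, an acyl-CoA synthetase, rose by 0.83 ± 0.18, the sulfate transporter Slc13a1 by 1.13 ± 0.33, the urate and phosphate carrier Slc17a3 by 1.05 ± 0.25, the scaffold protein Pdzk1 by 0.88 ± 0.24, Miox, which breaks down inositol, by 0.72 ± 0.22 and Ttc36 by 0.89 ± 0.26. All of these but Ttc36 were separated from whole kidney in every library. Their calls were lost without mouse 3 (Acsm2), mouse 1, 2 or 3 (Slc13a1), mouse 4 (Slc17a3), mouse 3 or 4 (Pdzk1 and Ttc36) or mouse 2, 3 or 4 (Miox). Ttc36 also lost its call without the block (0.93, adjusted p = 0.0777 by edgeR).

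The promoters of 4 of the gained genes are shown because they belong to the proximal tubule genes that rose together. Slc22a6 and Slc22a8, the organic anion transporters OAT1 and OAT3, lie next to each other on chromosome 19 and are described further on. Each line holds the 250 bases before the RefSeq start of the gene (build GRCm38.p6), 5′ to 3′ on the gene's own strand. Capitals mark GTTAAT or its reverse complement ATTAAC, a half-site of the factor HNF1, which is known for driving genes of the proximal tubule. For Kap, Slc34a1 and Slc22a8 the RefSeq start lies inside the span that GENCODE gives the gene. The windows are chr6:133853668-133853917 (minus strand), chr13:55399398-55399647, chr19:8617746-8617995 and chr19:8592932-8593181 (plus strand).
Kap: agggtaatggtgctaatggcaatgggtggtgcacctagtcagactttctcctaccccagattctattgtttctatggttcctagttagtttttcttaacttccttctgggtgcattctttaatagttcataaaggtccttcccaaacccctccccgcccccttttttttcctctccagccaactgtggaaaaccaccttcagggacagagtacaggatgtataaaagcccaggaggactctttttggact
Slc34a1: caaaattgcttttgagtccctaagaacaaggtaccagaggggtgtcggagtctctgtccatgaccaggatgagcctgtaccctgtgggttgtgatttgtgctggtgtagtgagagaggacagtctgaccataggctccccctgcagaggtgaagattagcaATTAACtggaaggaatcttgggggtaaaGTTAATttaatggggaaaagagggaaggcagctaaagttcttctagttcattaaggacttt
Slc22a6: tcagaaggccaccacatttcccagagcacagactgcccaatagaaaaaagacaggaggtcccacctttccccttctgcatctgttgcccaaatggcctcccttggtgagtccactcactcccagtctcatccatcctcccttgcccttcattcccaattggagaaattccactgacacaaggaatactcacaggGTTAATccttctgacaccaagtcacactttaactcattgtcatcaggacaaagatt
Slc22a8: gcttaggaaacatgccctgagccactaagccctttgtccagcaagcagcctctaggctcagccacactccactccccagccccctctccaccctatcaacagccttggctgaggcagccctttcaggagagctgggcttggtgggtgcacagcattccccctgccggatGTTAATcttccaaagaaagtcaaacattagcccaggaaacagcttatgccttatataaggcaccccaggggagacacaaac
The half-site was found once in the windows of Slc22a6 and Slc22a8, in both orientations in that of Slc34a1, and not in that of Kap. No match says only that these letters are not in the window. Over 5 lists (the whole proximal tubule, S1 and S2, S3, endocytosis, and organic anion and cation transporters), 29 genes rose and 24 of them had a promoter in the RefSeq table. Of those, 7 (29.2%) held the half-site on either strand: Acsm2, Miox, Slc22a6, Slc22a8, Slc34a1, Slc5a10 and Slc6a13. Of the 27 matched list genes that were tested and not higher, 4 (14.8%) held it, and of all 27025 genes in the table, 7.49% did. These are counts of letters and not of bound sites.

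Of the early segments S1 and S2, where glucose, bicarbonate and organic anions are handled, 6 of 12 genes rose and none fell (median 0.98). By comparison, 2.11% of all genes were higher, and 24.6% of those at 200 CPM or more in whole kidney. Slc4a4, the basolateral exit for bicarbonate, had 1883, 3164, 1994 and 2601 CPM against 612, 843, 657 and 719 CPM, with no overlap, and rose by 1.75 ± 0.23 (edgeR, adjusted p = 2.63e-11). Slc13a3, the basolateral dicarboxylate transporter, had 1174, 1358, 1180 and 1864 CPM against 329.8, 582, 375 and 350.1 CPM and rose by 1.78 ± 0.25 (edgeR, adjusted p = 1.61e-09). Slc22a8 had 489.9, 728, 1204 and 1937 CPM against 326, 358, 338 and 237 CPM. Its neighbour Slc22a6 had 1297, 1378, 2326 and 2227 CPM against 730.4, 1000, 833 and 846 CPM. Both organic anion transporters were separated from whole kidney in every library, with log2 fold changes of 1.60 ± 0.27 and 1.04 ± 0.23. Slc5a2, the glucose transporter SGLT2 of S1, rose by 0.98 ± 0.32 and the cytochrome Cyp2e1 by 0.98 ± 0.26. The call of Slc5a2 was lost on leaving out any of the 4 mice, that of Cyp2e1 without mouse 2 or 3 and that of Slc22a6 without mouse 3, and the direction held each time. Not every S1 gene followed. Gatm, which makes the creatine precursor guanidinoacetate, had 112, 62.4, 127 and 137 CPM in the region and 372, 119, 163 and 129 CPM in whole kidney, with a log2 fold change of -0.73 ± 0.43 (edgeR, adjusted p = 0.335). The lactate transporter Slc5a12 had 261, 175, 109.7 and 73.3 CPM against 43.4, 62.5, 58.4 and 55.4 CPM (1.34 ± 0.52, adjusted p = 0.0943, and 1.65 with adjusted p = 0.0413 by edgeR without mouse 4).

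The late segment S3, which runs down into the outer stripe of the medulla, had nearly the median of S1 and S2 but not the same change in summed share. Of 12 genes 5 rose (41.7%, against 2.11% higher over all genes) and 1 fell (8.33%, against 5.71% lower over all genes). Of the 12, 10 had values above 0, and the median was 0.92. The summed share of the list overlapped between the tissues (1.1% ± 0.217 in the region and 0.968% ± 0.0716 in whole kidney). That of the list for S1 and S2 did not (0.757% ± 0.0795 in the region and 0.41% ± 0.0156 in whole kidney). Slc16a9, a monocarboxylate transporter, had 184, 286, 224 and 319.9 CPM against 64.5, 69.3, 62.6 and 67.6 CPM and rose by 1.91 ± 0.42. Slc6a13, which carries GABA and taurine, rose by 1.66 ± 0.33, the flippase Atp11a by 1.32 ± 0.25, the SGLT-family transporter Slc5a10 by 1.21 ± 0.36 and the cytochrome Cyp4b1 by 0.94 ± 0.22. The call of Slc5a10 was lost without mouse 2, 3 or 4 and that of Cyp4b1 without mouse 3. Cyp7b1, the oxysterol hydroxylase, went the other way: it had 13.2, 46.2, 97.3 and 1.3 CPM in the region against 201, 184, 167 and 168 CPM in whole kidney. All 4 region libraries lay below the lowest whole kidney library, by amounts that ranged widely. It fell by 3.19 ± 0.60 on the log2 scale (edgeR, adjusted p = 3.61e-05; -2.19, adjusted p = 0.166 without the mouse block, and -2.20 without mouse 4). Slc7a13, the acidic amino acid and cystine carrier that is the classical S3 marker, had 822, 551, 971 and 1026 CPM against 790, 1013, 1134 and 965 CPM, which overlapped (-0.24 ± 0.24, adjusted p = 0.646). DESeq2's Wald test called 3 genes higher in each of the lists for S1 and S2 and for S3. When all 20 healthy libraries shared 1 fit, 2 genes of S1 and S2 were called higher and none of S3.

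Transporters that secrete drugs and metabolites were mostly higher. Of 17 organic anion and cation transporters 10 rose (58.8%) and none fell (median 1.03), and DESeq2 called 4 higher. Over all genes 2.11% were higher, with 5.28% at 50 to 200 CPM in whole kidney and 24.6% at 200 CPM or more. The summed share of counts of the 17 genes was 0.932% ± 0.0896 in the region and 0.565% ± 0.0264 in whole kidney, without overlap. Slc22a28 had 366, 364, 292 and 541 CPM against 119, 111, 109 and 120.1 CPM and rose by 1.73 ± 0.35. Slc22a2, the organic cation transporter OCT2, rose by 1.08 ± 0.24. Slc22a12, the urate transporter URAT1, had 2666, 2101, 2419 and 2631 CPM against 1374, 1155, 1085 and 1216 CPM (1.02 ± 0.22), and the apical pump Abcc2 rose by 1.41 ± 0.32. Slco1a1 rose by 1.33 ± 0.32, Slc22a18 by 1.03 ± 0.26 and the apical cation exchanger Slc47a1 by 0.90 ± 0.27. The calls of Slc22a18 and Slc47a1 were lost without mouse 3 or 4, and that of Slc47a1 without mouse 2 as well. Without mouse 4, 8 of the 17 were called. At a mean of at least 10 CPM 3 of 16 tested were, and none was when all 20 healthy libraries shared 1 fit. Several of these genes belong to families with near copies, so reads could be split between them by the authors' counting.

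Fewer genes of endocytosis and metabolism passed, and the medians of the first 2 lists turned with the scaling. For comparison, 2.11% of all genes were higher, and 24.6% of those at 200 CPM or more in whole kidney. Of 8 genes of the megalin and cubilin pathway 2 rose, Lrp2 and Amn (amnionless, the partner of cubilin; 1.02 ± 0.32, lost without mouse 1, 3 or 4 and 1.32 with adjusted p = 0.0898 without the block). The list's median was 0.25, and with library totals alone it was -0.17 and none was called. Cubn itself had 66.9, 46.7, 160.4 and 185 CPM against 93.3, 64.7, 81.1 and 67.7 CPM, with the whole kidney values inside the range of the region (0.37 ± 0.55, adjusted p = 0.775). Of 18 genes of fatty acid oxidation 2 rose and none fell (median 0.23; with library totals alone none rose, 1 fell and the median was -0.19), among them the peroxisomal thiolase Acaa1b (0.97 ± 0.31). Acadm, the medium-chain dehydrogenase of mitochondria, had 489.7, 480, 266 and 176 CPM against 643, 369, 422 and 409 CPM (-0.48 ± 0.30, adjusted p = 0.371). The call of Acaa1b was lost on leaving out any mouse. Of 6 gluconeogenic genes 1 rose, Pcx, pyruvate carboxylase (1.21 ± 0.31, lost without mouse 3). None of 14 glycolysis genes was called by edgeR; unadjusted, 2 had a p under 0.05, and the DESeq2 count was 1. Aldoa had 412, 276, 262 and 430.1 CPM against 549, 551, 478 and 516 CPM (-0.64 ± 0.29, adjusted p = 0.178).

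**Figure D2:**
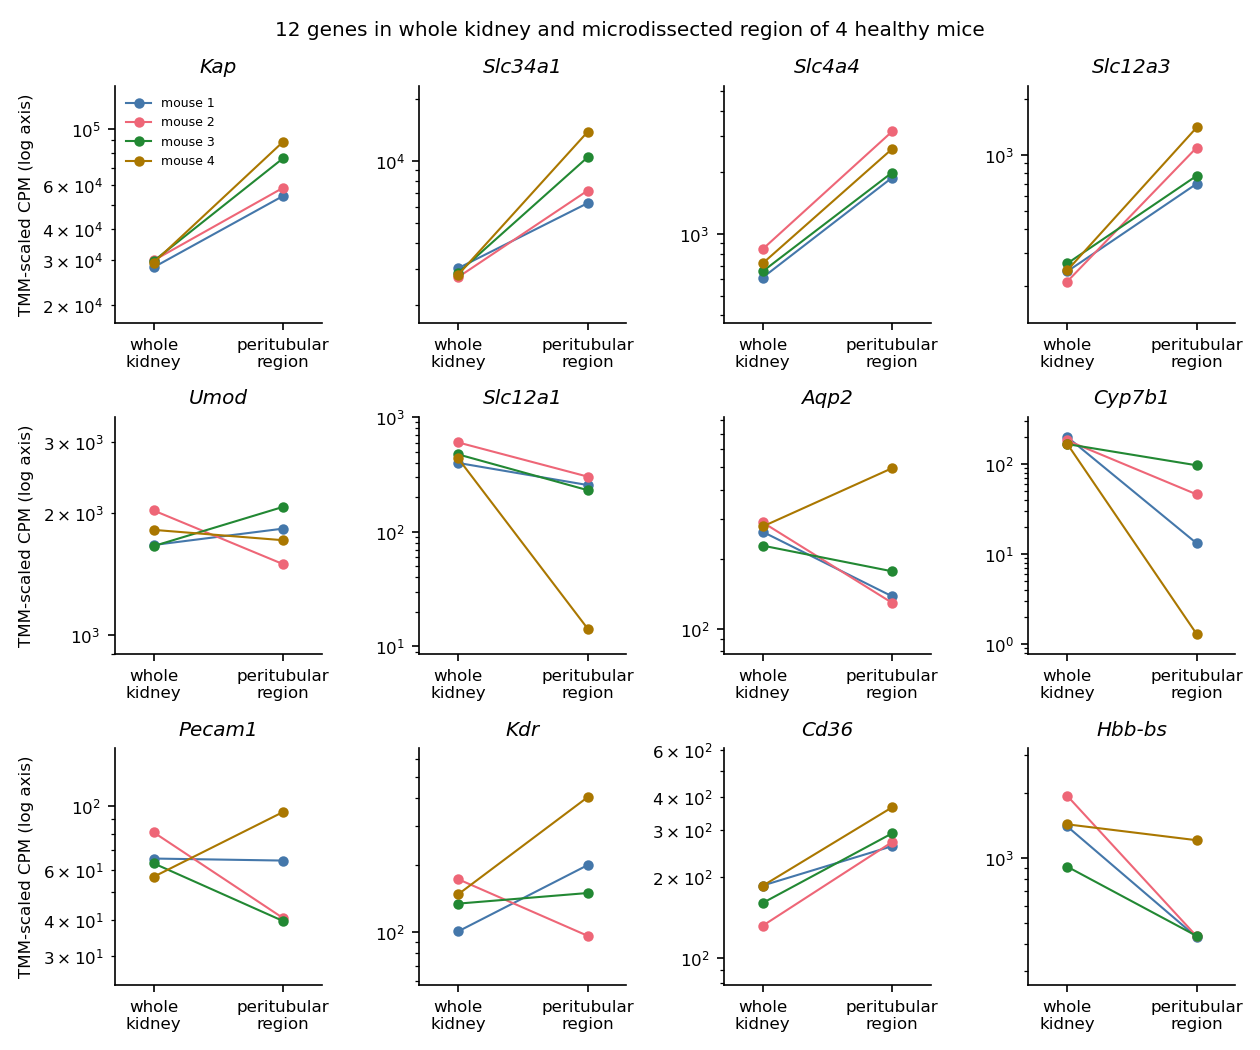
TMM-scaled CPM (log axis) of 12 genes in whole kidney and in the microdissected peritubular region, 1 line per healthy mouse (n = 4). Kap, Slc34a1, Slc4a4, Slc12a3 and Cd36 are higher in the region in every mouse, Slc12a1, Cyp7b1 and Hbb-bs are lower in every mouse, and Umod, Aqp2, Pecam1 and Kdr are higher in some mice and lower in others.

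Past the proximal tubule, the defining transporter of the distal convoluted tubule rose as well. Slc12a3 (chr8:94329201-94366214), the thiazide-sensitive sodium chloride cotransporter, had 700.5, 1094, 773 and 1401 CPM in the region and 238, 210.1, 262 and 241 CPM in whole kidney. The lowest region library held more than 2 times the highest whole kidney library, and the log2 fold change of 2.01 ± 0.28 (edgeR, adjusted p = 3.9e-10) stayed between 1.58 and 2.21 over 14 alternatives. It was the only one of 6 genes of the segment that was called (16.7%), and the median of the 6 was 0.18 (-0.06 without mouse 4 and 1.44 without the block). Over all genes 2.11% were higher, and 24.6% of those at 200 CPM or more in whole kidney. Slc12a3 lost its call when all 20 healthy libraries shared 1 fit (2.14, adjusted p = 0.188 by edgeR). Klhl3, an adaptor that controls this transporter, had 169.8, 110.4, 58.3 and 256 CPM against 31.5, 53.7, 52.1 and 48.5 CPM. All region values were above all whole kidney values (1.52 ± 0.56, adjusted p = 0.0699; 1.68, adjusted p = 0.0405 without the block). In the connecting tubule list 1 of 5 genes was called, Klk1, tissue kallikrein, with 4348, 1553, 3311 and 9939 CPM against 1638, 2233, 1803 and 1997 CPM. Its region values spread on both sides of whole kidney, with mouse 2 below and mouse 4 far above. The rise of 1.03 ± 0.22 (edgeR, adjusted p = 0.000508) became 0.60 with adjusted p = 0.436 without mouse 4 and 1.32 with adjusted p = 0.0818 without the block. Klk1 has near copies among the mouse kallikreins, and reads could be shared with them.

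The thick ascending limb, which dilutes the tubular fluid, did not move as one. Of 11 genes 2 fell (18.2%) and none rose, with a median of -1.65. Over all genes tested 5.71% were lower and the median was -1.03. With library totals alone none of the 11 was called and the median was -1.96. The summed share of counts of the 11 genes was 0.324%, 0.275%, 0.295% and 0.203% in mice 1 to 4 of the region against 0.368% to 0.393% in whole kidney. Slc12a1 (chr2:125152505-125230002), the loop-diuretic-sensitive cotransporter present along the whole limb, had 256, 303, 231 and 14.3 CPM against 398, 602, 473 and 436 CPM, lower in each mouse. It fell by 1.68 ± 0.36 (edgeR, adjusted p = 0.000994), and without mouse 4 it was -0.89 (adjusted p = 0.0683 by edgeR) and without the block -1.25 (adjusted p = 0.315). Ppp1r1a, a phosphatase inhibitor, had 96.4, 36.5, 95.1 and 2.41 CPM against 140.1, 173, 138 and 135 CPM (-1.99 ± 0.59, lost without mouse 2 or 4 and without the block, -1.34). Umod, uromodulin, the main protein secreted by this limb, had 1832, 1497, 2073 and 1715 CPM in the region and 1669, 2031, 1659 and 1819 CPM in whole kidney, which overlapped fully (-0.02 ± 0.22, adjusted p = 0.978). Egf, epidermal growth factor, made by the cortical limb and the distal convoluted tubule, had 879, 559.5, 684 and 803 CPM against 459, 413, 422 and 413 CPM. Every region library was above every whole kidney library, but the rise of 0.76 ± 0.27 was not called (edgeR, adjusted p = 0.0573; 0.78, adjusted p = 0.0246 without the block). The sign of Umod changed with the setting, between -0.44 and 0.19.

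Collecting duct transcripts were uneven between mice. None of 10 principal cell genes was called (edgeR, median -1.67; 3 were lower at an unadjusted p under 0.05, and DESeq2 called 2 lower). Their share of counts was 0.0417% ± 0.0176 in the region and 0.0744% ± 0.00331 in whole kidney, without overlap. Aqp2, the vasopressin-controlled water channel, had 138, 129, 177 and 496 CPM against 263, 289, 229 and 277 CPM, so that 3 mice were below whole kidney and mouse 4 above. Apela had 84.2, 52.2, 43.2 and 78.1 CPM against 106, 180, 152 and 182 CPM (-1.30 ± 0.50, adjusted p = 0.0881). Aqp4, a basolateral water channel more abundant toward the inner medulla, had 0.13, 0, 0.649 and 0.186 CPM against 8.39, 9.14, 14 and 11.4 CPM. The region was at or near its floor of 3 counts per library. Of 9 intercalated cell genes 1 fell (11.1%, against 5.71% lower over all genes). It was Atp6v1g3, a proton pump subunit, with 109, 34.9, 1.73 and 4.27 CPM against 103, 100.5, 106 and 112 CPM. Mouse 1 kept its whole kidney level and mice 3 and 4 had nearly none, and the fall of 3.01 ± 0.85 was lost without mouse 3 or 4 and without the block (-1.49, adjusted p = 0.488).

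Many transcripts of the deep medulla, papilla and pelvis had few or no counts in the region. Of 6 thin limb genes 2 fell and none rose (median -4.50). Genes this low often did so: of all 2057 tested genes at 2 to 5 CPM in whole kidney, the range that holds both called members, 22.4% were called lower and the median was -3.61. Corin had 0, 0.149, 0.108 and 0 CPM against 2.05, 2.89, 2.34 and 1.35 CPM (-4.99 ± 1.49). Fst, follistatin, had 0, 0.298, 0.108 and 0 CPM against 4.91, 2.29, 1.58 and 2.51 CPM (-4.78 ± 1.58), and both calls were lost without mouse 1, 3 or 4. Slc14a2, the urea transporter of thin limbs and inner medullary duct, had 0.13, 0, 29.7 and 0 CPM against 14.9, 26.1, 25 and 22.6 CPM. Thus 3 of the 4 region libraries were at or near 0 and that of mouse 3 held as much as whole kidney (-6.78 ± 2.68, adjusted p = 0.0996). Of 7 genes of urothelium and papilla, 5 had no count in any region library. Krt15 and Psca were among them, with 5.73, 5.29, 5.5 and 3.28 CPM and 7.57, 3.13, 15.9 and 33.1 CPM in whole kidney. Against the floor of 3 counts per library whole kidney held 11.5-fold more Krt15 and 34.7-fold more Psca. These are lower bounds for counting error only and do not cover the spread between region libraries. Both calls were lost without mouse 4, and that of Psca without mouse 1 or 3. The urothelial plaque gene Upk1a was an exception in mouse 3, with 0, 1.49, 66.9 and 0 CPM in the region against 5.63, 3.01, 10.5 and 22 CPM. Adipsin (Cfd), a fat-cell gene, differed among the whole kidney samples themselves, at 25.7, 0.842, 113 and 214 CPM in mice 1 to 4, and had 0.519, 0.149, 0.54 and 0.742 CPM in the region. Of 6 fat-cell genes 1 could be tested, and edgeR did not call it.

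**Figure D3:**
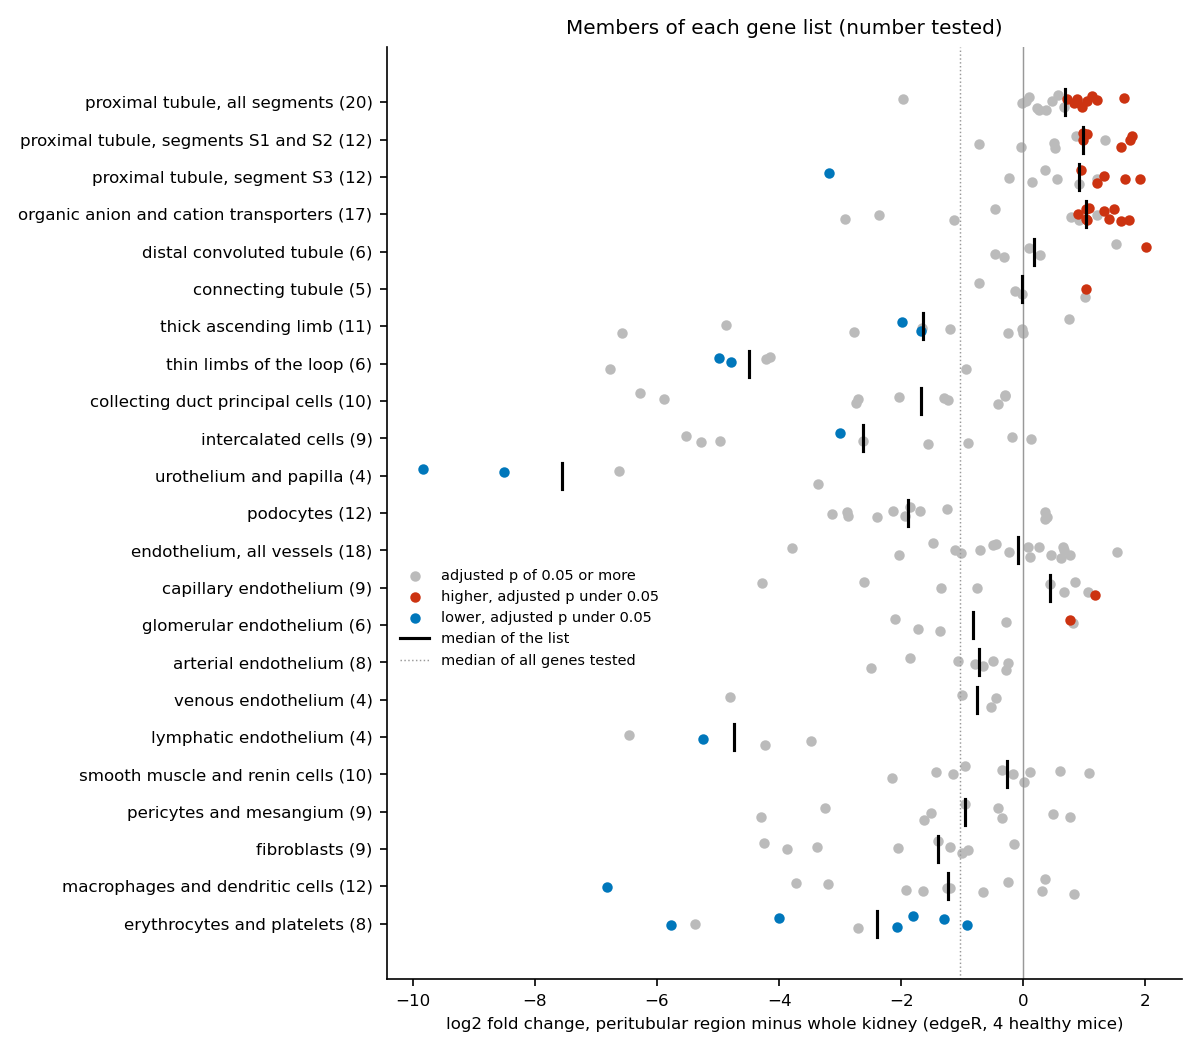
Log2 fold change (peritubular region minus whole kidney, horizontal axis) of each tested member of 23 gene lists (1 point per gene, number tested in brackets), with the list's median as a black line. Red and blue points passed an adjusted p of 0.05 as higher and lower. The red points gather in the proximal tubule and transporter lists, and the dotted line is the median of all genes tested, -1.03.

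Markers of podocytes, the cells of the glomerular filter, were detected at low levels. None of 12 podocyte genes was called (edgeR; 1 was lower at an unadjusted p under 0.05, and DESeq2 called 1 lower). Of them 4 lay below whole kidney in every library, as did 15.5% of all tested genes. The list's share was 0.0274% ± 0.00584 against 0.0359% ± 0.00233, and the values overlapped. The renin gene Ren1, of the arteriole at the glomerular pole, had 5.71, 35.4, 19.2 and 3.53 CPM against 47.6, 46.6, 49.8 and 50.3 CPM, below in every mouse (-2.16 ± 1.32, adjusted p = 0.358). Nos1, the neuronal nitric oxide synthase known from the macula densa, had 27.8, 30.4, 6.27 and 18.4 CPM against 1.23, 1.08, 1.58 and 0.772 CPM. It was higher in every library but not called (4.00 ± 1.97, adjusted p = 0.231; 4.13, adjusted p = 0.0359 without the block). The other 3 genes of the macula densa list had at most 0.108 CPM in any region library.

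Endothelium, the tissue named in the label, was detected, and no gene of general endothelial identity passed as higher than in whole kidney. Of 18 tested, edgeR called none in either direction, no unadjusted p was under 0.05, and DESeq2 called 1 lower (over all genes 2.11% were higher and 5.71% lower). Their summed share of counts was 0.0966%, 0.0764%, 0.0595% and 0.122% in the region of mice 1 to 4 and 0.0672% to 0.0768% in whole kidney, with mice 3 and 4 on opposite sides of the whole kidney range. The list's median of -0.08 ran from -0.49 to 0.68 over the alternatives and was 0.68 without the block, so its sign depended on the setting. Pecam1 (chr11:106654217-106750628), the junction protein CD31 used to stain vessels, had 64.5, 40.7, 39.8 and 95 CPM in the region and 65.5, 80.8, 63 and 56.6 CPM in whole kidney. Mice 2 and 3 were below whole kidney, mouse 1 level with it and mouse 4 above, and the log2 fold change was -0.24 ± 0.73 (edgeR, adjusted p = 0.899; 0.004 without mouse 2). Kdr, a receptor for vascular endothelial growth factor, had 200.1, 96.1, 149.8 and 405 CPM against 101, 173, 134 and 148 CPM (0.45 ± 0.41, adjusted p = 0.588). Its companion receptor Flt1 had 189, 148, 118 and 214 CPM against 73.9, 109, 92.5 and 116 CPM. Flt1 was above whole kidney in every library without passing (0.76 ± 0.45, adjusted p = 0.337). Emcn, endomucin of capillaries and veins, had 72.5, 58, 81 and 594 CPM against 60.7, 69.9, 76.2 and 83.5 CPM: mice 1 to 3 lay near whole kidney and mouse 4 was several times higher. Cdh5, the endothelial cadherin, had 0.259, 7.61, 0.865 and 0.371 CPM against 15.8, 7.82, 11.1 and 12 CPM, lower in every mouse (-3.79 ± 2.24, adjusted p = 0.338). In the same region libraries the 20 proximal tubule genes took 8.73% ± 0.825 of counts, most of it Kap, and the 19 endothelial genes 0.0886% ± 0.0268. The part of the tubule in these values was not tested.

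Of 9 genes listed for capillaries 1 rose (11.1%) and none fell. Over all genes 2.11% were higher, and 24.6% of those at 200 CPM or more in whole kidney. The list's median of 0.44 ran from -0.58 to 0.65 over the alternatives. Cd36 (chr5:17781690-17888801), the fatty acid receptor of capillary endothelium, which mouse proximal tubule also makes, had 261, 271, 292 and 365 CPM in the region and 186, 132, 160.1 and 186 CPM in whole kidney. No values overlapped and every mouse was higher, but the log2 fold change of 0.84 ± 0.35 was not called (edgeR, adjusted p = 0.122; 0.84, adjusted p = 0.0421 without the block). Car4, the membrane carbonic anhydrase of capillaries and of proximal tubule, was the called gene, with 443, 515, 389 and 842 CPM against 246, 236, 209 and 236 CPM (1.17 ± 0.30, adjusted p = 0.00432, lost without mouse 4 at 0.96). Plvap, the diaphragm protein of fenestrated endothelium, had 99.9, 77.6, 12.5 and 72.9 CPM against 101, 89.4, 88.3 and 86.4 CPM (-0.75 ± 0.64, adjusted p = 0.555). Fabp4, of capillaries and fat cells, had 62.1, 53.1, 21.2 and 80.2 CPM in the region against 61.8, 45.2, 333 and 314 CPM in whole kidney, where mice 3 and 4 were also those with the most adipsin. The part of fat in this value was not tested. The glomerular capillary gene Ehd3 had 69.3, 105, 60.5 and 196 CPM against 56.8, 63.5, 43.8 and 55.5 CPM (0.82 ± 0.60, adjusted p = 0.468). In the list of glomerular endothelium, 1 of 6 genes rose, Lpl, lipoprotein lipase. It had 2538, 2164, 2887 and 4421 CPM against 1771, 1629, 1526 and 1937 CPM and rose by 0.76 ± 0.21 (edgeR, adjusted p = 0.00931, lost without mouse 3 or 4). None of 8 arterial and 4 venous genes was called by edgeR or DESeq2 (1 venous gene was lower at an unadjusted p under 0.05). Of 4 lymphatic genes 1 fell, Reln, with 0.13, 0, 0.216 and 0 CPM against 2.66, 2.65, 3.85 and 4.44 CPM (-5.25 ± 1.66, lost on leaving out any mouse). At the level of Reln, 2 to 5 CPM in whole kidney, 22.4% of all tested genes were lower.

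Among genes of the cells around the capillaries edgeR called 1, a macrophage gene. None of 10 smooth muscle and renin cell genes, 9 pericyte and mesangial genes or 9 fibroblast genes was called by edgeR. At an unadjusted p under 0.05, 1, 1 and 3 of them were lower, and DESeq2 called 1 pericyte gene lower. Without the block, edgeR called 2 fibroblast genes and 1 smooth muscle gene lower, and with library totals alone the same numbers. Acta2, smooth muscle actin, had 51.4, 73.8, 30.6 and 38.6 CPM against 129, 124, 107 and 134 CPM, below whole kidney in every library (-1.42 ± 0.58, adjusted p = 0.117; -1.35, adjusted p = 0.0462 without the block). Mylk, myosin light chain kinase, had 486, 309.5, 406 and 452 CPM against 207, 316, 240.4 and 331 CPM (0.60 ± 0.31, adjusted p = 0.258). Fibroblast genes summed to 0.0351% ± 0.0085 of counts in the region and 0.065% ± 0.00274 in whole kidney, with no overlap. Decorin (Dcn) had 20.4, 107, 6.27 and 29.7 CPM against 104, 106, 106 and 102 CPM, equal in mouse 2 and lower in the others (-2.05 ± 0.73, adjusted p = 0.0565). Of 12 macrophage and dendritic cell genes 1 fell, Cd68, at 0, 0.149, 0 and 0 CPM against 4.4, 4.93, 4.95 and 3.18 CPM (-6.81 ± 1.93, lost without mouse 1, 3 or 4). At the level of Cd68, 2 to 5 CPM in whole kidney, 22.4% of all tested genes were lower. The class II gene H2-Aa had 26.3, 150.4, 55.1 and 10.02 CPM against 112, 137, 128 and 106 CPM (-1.64 ± 0.61, adjusted p = 0.0715).

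Transcripts of red blood cells and platelets were lower in the region. Of 8 erythrocyte and platelet genes 6 fell and none rose (median -2.39), against 3 with DESeq2, 3 without the block and 1 when all 20 healthy libraries shared a fit. Together they made up 0.113% ± 0.0465 of counts in the region and 0.353% ± 0.0911 in whole kidney. Hbb-bs, adult beta globin, had 429.6, 434, 435 and 1210 CPM against 1402, 1944, 912 and 1434 CPM and fell by 1.30 ± 0.25 (edgeR, adjusted p = 4.82e-05). Mice 1 to 3 of the region were nearly equal and far below whole kidney, and mouse 4 overlapped it. Hbb-bt, Hba-a1 and Hba-a2 fell by 2.07 ± 0.42, 0.92 ± 0.27 and 1.81 ± 0.33. Without the block Hbb-bt kept its call (-1.95, adjusted p = 0.0128), while Hbb-bs (-1.18, adjusted p = 0.0666), Hba-a1 and Hba-a2 did not, and Hba-a1 also lost it without mouse 1, 2 or 3. These globin genes are near copies in pairs, and reads could be split between them. The platelet chemokine Pf4 had 0, 0.149, 0.216 and 0 CPM against 5.32, 5.9, 3.99 and 4.05 CPM, and Ppbp had 0, 0.149, 0.108 and 0.186 CPM against 1.23, 2.05, 1.38 and 2.6 CPM. Both were below the floor of 3 counts in every region library, and their calls were lost on leaving out any mouse. Low genes were often called lower: 22.4% of all tested genes at 2 to 5 CPM in whole kidney were, and 18.7% under 2 CPM. Of the lists for white blood cells, 2 lymphocyte and 2 neutrophil genes could be tested and edgeR called none. Both lymphocyte genes were lower at an unadjusted p under 0.05 and by DESeq2, and neither neutrophil gene was.

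Genes of coagulation and inflammation, the study's theme, were mostly not called, as was true of all genes. Of 14 tested genes of coagulation and fibrinolysis 1 fell (7.14%, against 5.71% over all genes), the fibrinogen chain Fgb, at 0.13, 0, 0.108 and 0 CPM against 2.97, 3.25, 4.47 and 2.31 CPM (-5.60 ± 1.67, lost without mouse 2, 3 or 4). Of all tested genes at 2 to 5 CPM in whole kidney, the level of Fgb, 22.4% were lower. Serpinf2, the plasmin inhibitor alpha-2-antiplasmin, was the most abundant of the list, with 357, 333, 644 and 745 CPM against 322, 299, 261 and 257 CPM. It was above whole kidney in every library but not called (0.79 ± 0.30, adjusted p = 0.0853). None of 5 tested leukocyte adhesion genes and none of 12 immediate early genes was called by edgeR (1 adhesion gene was lower at an unadjusted p under 0.05, and DESeq2 called 1 immediate early gene lower). The immediate early list took 0.0145% ± 0.00482 of counts in the region and 0.0307% ± 0.00709 in whole kidney.

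Beyond the lists, the genes with the greatest gains among those of at least 20 CPM that rose in all 4 mice included several known from tubule. Ttr, transthyretin, the carrier of thyroxine and retinol-binding protein, had 439.9, 1558, 1196 and 1978 CPM against 166, 229, 217 and 160.4 CPM and rose by 2.57 ± 0.28 (edgeR, adjusted p = 4.95e-17). Dao, D-amino acid oxidase of proximal tubule peroxisomes, had 411, 479, 594 and 904 CPM against 134, 129.8, 101 and 92.8 CPM and rose by 2.33 ± 0.32 (edgeR, adjusted p = 6.01e-10). The zinc transporter Slc30a2 had 161, 117, 126 and 121 CPM against 21.1, 22, 22.6 and 33.9 CPM (2.41 ± 0.64, lost without mouse 1 or 3). The complement-related protease C1rl (2.28 ± 0.53) and the cytochrome Cyp2d12 (2.18 ± 0.50) were also among them, both lost without mouse 4. Others were Snx29, a sorting nexin (2.68 ± 0.57), Abcd4, a lysosomal cobalamin transporter (2.59 ± 0.87, lost without mouse 1, 2 or 3), and Rnpc3, of the minor spliceosome (2.47 ± 0.71, lost without mouse 1 or 4). The remaining 4 of the 12 are not ordinary messenger RNAs in GENCODE: the small nucleolar RNA Gm22748 (3.03 ± 0.30), an rRNA-type locus named by its identifier ENSMUSG00000065922 (2.29 ± 0.33), the TEC-class transcript Gm42614 (2.97 ± 0.94, lost without mouse 1, 2 or 4) and the antisense transcript Gm45792 (2.35 ± 0.43). Without strand, reads of the last cannot be told from those of its partner. By absolute difference in CPM the 5 greatest gains were Kap, the mitochondrial ribosomal RNA mt-Rnr2, Gpx3, Slc34a1 and Spink1. Gpx3, the plasma glutathione peroxidase secreted by proximal tubule, had 20020, 20680, 26660 and 42990 CPM against 11280, 12950, 9712 and 9042 CPM (1.30 ± 0.16). The trypsin inhibitor Spink1 had 4135, 4767, 5940 and 6651 CPM against 1426, 1870, 1649 and 1556 CPM (1.71 ± 0.20).

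The greatest losses by the same rule began with Cck, cholecystokinin, which had 0, 0.149, 0.324 and 0 CPM in the region and 31.5, 39.8, 27.5 and 41.4 CPM in whole kidney (-8.38 ± 2.20, adjusted p = 0.0058; lost without mouse 1 or 4). Next was the homeobox gene Irx1, with 1.3, 1.64, 0.216 and 0.371 CPM against 56, 61.1, 41.9 and 43.4 CPM (-6.17 ± 1.68, adjusted p = 0.00907; lost without mouse 1, 2 or 3). Both were at most 1.64 CPM in every region library. Cryab, a small heat shock protein that is abundant in the medulla, had 48.4, 41.9, 203 and 27.5 CPM against 189, 286, 280.1 and 297 CPM and fell by 2.18 ± 0.44 (edgeR, adjusted p = 0.000138; -1.71, adjusted p = 0.0862 without the block). The calcium-binding protein S100a6 had 5.97, 2.24, 51.4 and 2.78 CPM against 53.8, 47.8, 114 and 171 CPM (-3.67 ± 0.95, lost without mouse 4 and without the block at -2.63). In both genes, as in Slc14a2, mouse 3 had the highest region value. The other 8 were Cyp7b1, gelsolin (Gsn, -2.89 ± 0.80), Sh3bgrl3 (-2.89 ± 0.92), Cox7a2l (-2.79 ± 0.80), Mettl7a2 (-2.78 ± 0.95), the brain-type creatine kinase Ckb (-2.48 ± 0.64), Serpina1f (-2.46 ± 0.71) and Tmem256 (-2.26 ± 0.61). Of these, Cyp7b1 alone was called without mouse 4, at -2.20 (adjusted p = 0.0259 by edgeR), and none was called without the block. Sh3bgrl3, Mettl7a2 and Serpina1f lost their calls on leaving out any mouse, Gsn also without mouse 1, Ckb also without mouse 2, and Cox7a2l and Tmem256 also without mouse 3.

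Mitochondrial transcripts did not move as one. The mRNAs of the 13 mitochondrial genes took 6.47%, 5.79%, 5.46% and 4.02% of counts in the region and 11.1% to 12.2% in whole kidney, and 4 of the 8 tested fell. Several have near copies in the nuclear genome, so their counts are uncertain. mt-Nd4, a subunit of complex I, had 22470, 18970, 21400 and 18780 CPM against 31440, 40670, 37040 and 36580 CPM and fell by 0.83 ± 0.15 (edgeR, adjusted p = 1.28e-05). The subunit mt-Cytb of complex III fell by 0.80 ± 0.16, mt-Nd1 by 0.65 ± 0.16 (lost without mouse 3) and mt-Nd2 by 0.65 ± 0.17 (lost without mouse 3 or 4 and without the block). Under DESeq2's size factors the 4 were between -0.63 and -0.45 and none was called. mt-Co1 had 2715, 2595, 3124 and 2485 CPM against 2418, 2697, 2198 and 2220 CPM (0.20 ± 0.20, and -0.23 with library totals alone). For mt-Nd5 the values were 2228, 2061, 2225 and 2857 CPM against 1897, 2159, 1909 and 1831 CPM (0.26 ± 0.21, and -0.17 with library totals alone). The large ribosomal RNA mt-Rnr2 rose, with 45390, 44510, 41330 and 60780 CPM against 13510, 15580, 13960 and 14870 CPM (1.71 ± 0.15, adjusted p = 3.01e-25 by edgeR). Of 76 nuclear genes of the respiratory chain 10 rose (13.2%) and none fell (median 0.34). Over all genes 2.11% were higher, but 5.28% were at 50 to 200 CPM in whole kidney and 24.6% at 200 CPM or more. The list's 13.2% lay between these last 2 shares. The count rests on the setting: 1 rose without mouse 4 and 2 without mouse 3, DESeq2 called none higher and 1 lower, and with library totals alone 2 rose, 1 fell and the median was -0.08. Of 80 cytosolic ribosomal protein genes, many with pseudogene copies, 4 fell and none rose (median -0.24), which at 5.0% is near the 5.71% of all genes. With library totals alone 20 fell (median -0.66), and DESeq2 called 2 lower. A locus on chromosome 17 that GENCODE types as lincRNA is given here by its identifier (ENSMUSG00000098178, chr17:39846958-39848788). It had 42520, 44970, 27750 and 47020 CPM against 58900, 103300, 72010 and 83090 CPM and fell by 0.97 ± 0.14. What RNA its reads came from was not tested.

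Among nuclear long non-coding RNAs 2 of 4 rose. Of all genes 2.11% did, and 24.6% of those at 200 CPM or more in whole kidney. Neat1, the scaffold of paraspeckles, had 1973, 1816, 1367 and 2749 CPM against 511, 714, 634 and 756 CPM and rose by 1.57 ± 0.23 (edgeR, adjusted p = 1.83e-08). Malat1, retained in nuclear speckles, had 19880, 17660, 4101 and 7780 CPM against 3125, 6146, 4583 and 5186 CPM. Mice 1 and 2 of the region were several times whole kidney and mouse 3 was within its range. The rise of 1.14 ± 0.26 was lost without mouse 1 or 4 and without the block (1.38, adjusted p = 0.0611). Kcnq1ot1, antisense to Kcnq1 and not separable from it without strand, had 192, 158, 75.2 and 183 CPM against 37.6, 66.2, 62.1 and 56.5 CPM (1.40 ± 0.52, adjusted p = 0.0759; 1.45, adjusted p = 0.0328 without the block).

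**Figure D4:**
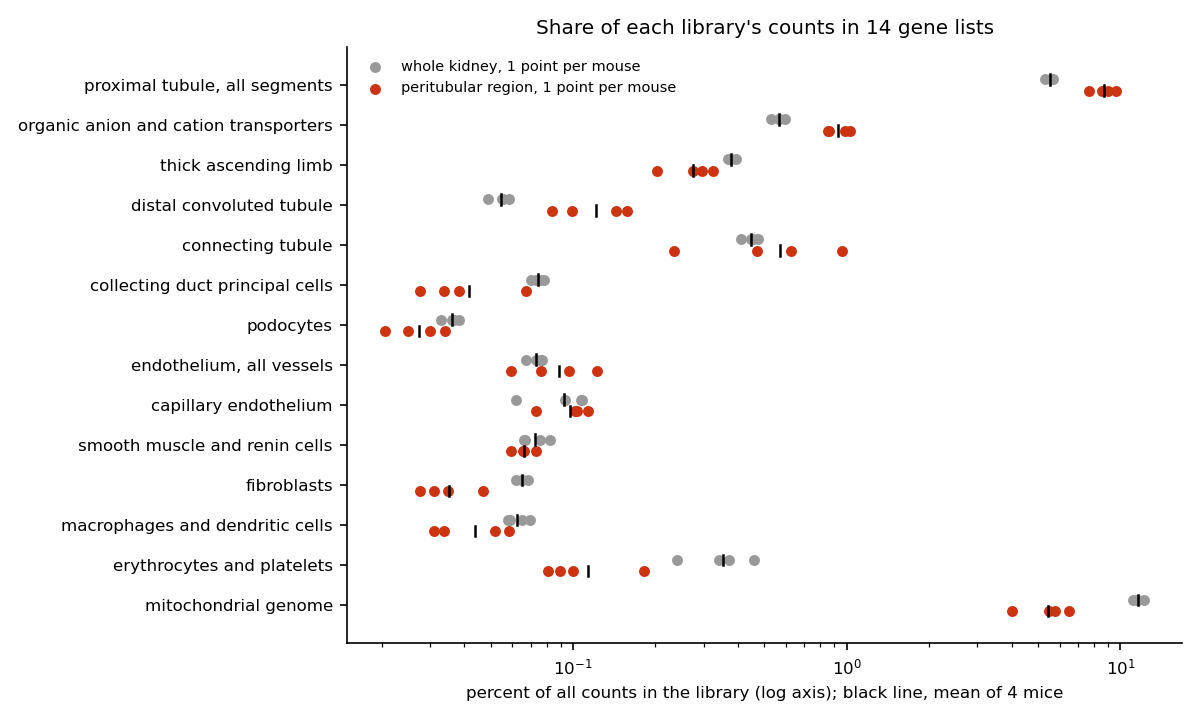
Percent of all counts in each library (log axis) that fell on 14 gene lists, 1 point per mouse and a black line for the mean of 4 mice, in whole kidney (grey) and in the peritubular region (red). The region lies above whole kidney for proximal tubule, transporter and distal convoluted tubule genes, overlaps it for endothelial genes, and lies below it for blood and mitochondrial mRNAs.

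The 4 mice of the sham group, examined at 4 h and sharing no library with the healthy mice, gave the same comparison again. Among 12773 tested genes 403 were higher in the region (3.16%) and 1425 lower (11.2%). Of the 268 genes higher in healthy mice 266 could be tested in sham mice and 188 were also higher in sham mice, which is 70.1% of the healthy set and 46.7% of the sham set. None was lower. Of the 726 lower genes 602 could be tested and 300 were also lower (41.3% and 21.1%), and none was higher. Of the 12 genes with the greatest gains described earlier 6 were also higher in sham mice, and of the 12 with the greatest losses 2 were also lower. The rest were not called there: Snx29 differed by 0.03 ± 1.49 and Rnpc3, with its sign turned, by -0.74 ± 1.85, while S100a6 differed by -0.20 ± 0.69 and Cox7a2l by -0.08 ± 0.62. In sham mice Kap differed by 1.48 ± 0.12, Slc34a1 by 1.98 ± 0.17, Lrp2 by 0.79 ± 0.26, Slc4a4 by 1.86 ± 0.21 and Slc12a3 by 1.84 ± 0.27, all called, and Slc12a1 by -1.19 ± 0.35 (edgeR, adjusted p = 0.00866). Umod (-0.09 ± 0.22), Pecam1 (-1.30 ± 1.23) and Cd36 (0.64 ± 0.40) were not called there either. Hbb-bs differed by -1.20 ± 0.25 and was called. Cyp7b1 differed by -1.77 ± 0.64 (adjusted p = 0.0425) and Ppp1r1a by -0.003 ± 0.53 (adjusted p = 0.998). In a joint fit of 16 libraries no gene of 13920 passed for a difference between sham and healthy mice in the region-minus-whole-kidney value by edgeR's interaction term. Unadjusted, 459 had a p under 0.05, and DESeq2 called 346. Samples of healthy and sham mice also differ in surgery, so the second set is not a repeat of an identical group.

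**Figure D5:**
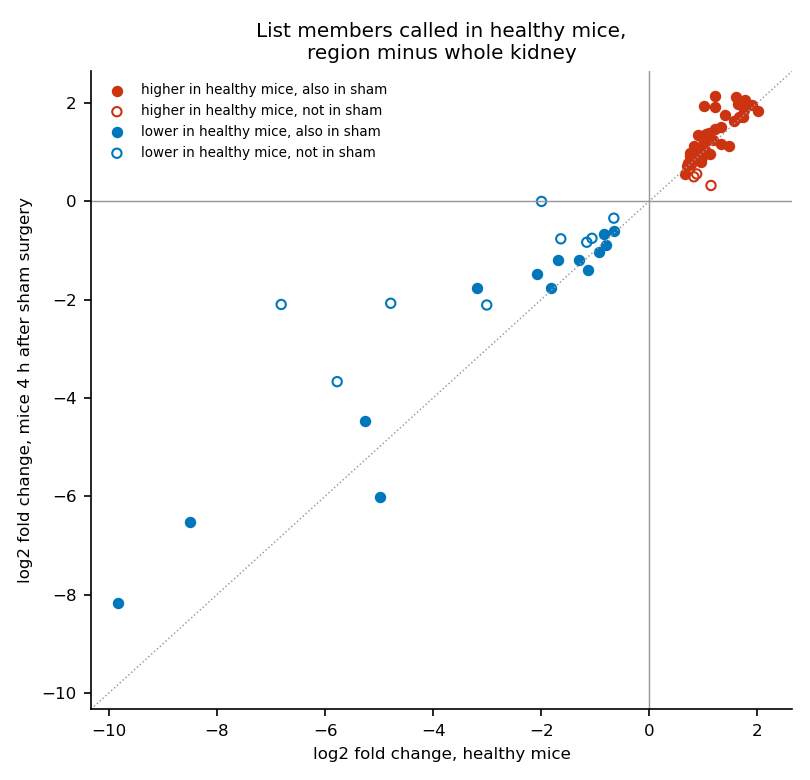
Log2 fold change (region minus whole kidney) in healthy mice (horizontal axis) and in mice at 4 h after a sham operation (vertical axis) for the 71 list members called in healthy mice and tested in both. Filled points were also called in sham mice and the dotted line marks equal values. Of 48 higher genes 45 were called again, of 23 lower genes 14 were, and all 71 points share their sign.

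Across all 5 compartments of the healthy mice, scaled together as a description, Kap, Slc12a3 and Cd36 were most abundant in the peritubular region, and Pecam1 was not. Kap had 71120 ± 19880 CPM there (SD, n = 4), 28640 ± 765 in whole kidney, 16980 ± 1724 in post-capillary venules, 7786 ± 3284 in arterioles and 3950 ± 756 in glomeruli. The spread of the region did not reach the next compartment. Slc12a3 had 1011 ± 349 CPM in the region, 399 ± 142 in venules and 232 ± 24.7 in whole kidney. Cd36 had 303 ± 60.0 CPM in the region, 162 ± 26.8 in whole kidney, 82.9 ± 39.5 in venules, 15 ± 6.76 in glomeruli and 3.63 ± 1.27 in arterioles. Pecam1 was at 61 ± 27.5 CPM in the region and 64.8 ± 9.04 in whole kidney, which do not differ beyond their spread, against 143 ± 86.9 in venules, 349 ± 74.9 in glomeruli and 1654 ± 1127 in arterioles. Plvap was at 65.4 ± 35.8 in the region and 258 ± 57.7 in venules. Some gains were not particular to the region. Of the 5 greatest gains by CPM difference, all but Kap were also higher in venules than in whole kidney, with the highest mean in the region. Slc34a1 had 9674 ± 3922 CPM in the region, 4711 ± 746 in venules and 2797 ± 158 in whole kidney. For Gpx3 the values were 28300 ± 11990, 17040 ± 3882 and 10480 ± 1564. Spink1 had 5499 ± 1420, 2885 ± 638 and 1586 ± 162, and mt-Rnr2 48820 ± 9999, 26710 ± 3688 and 14130 ± 683. Ttr had 1328 ± 690 CPM in the region and 1355 ± 218.5 in venules. The rRNA-type locus ENSMUSG00000065922 had 550 ± 243 in the region, 743 ± 386 in venules, 587 ± 286 in glomeruli and 549 ± 412 in arterioles. In whole kidney it had 111.5 ± 60.5. The other compartments share their mice with the comparison, and no test was made between them.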

How the data were processed

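RNA was sequenced from the 3′ end (Lexogen QuantSeq, per the labels' protocols). The authors deposited raw counts per gene for 34255 genes and 140 libraries in 1 table. The submitters' processing notes name the aligner STAR 2.7, the counters featureCounts and HTSeq 0.13, SAMtools 1.9 and the quality tools MultiQC 1.7 and FastQC 0.11.8. They give 2 builds, GRCm39 and GRCm38.p6. Which build and counter gave the deposited counts, and whether strand was used, is not given in the sources used here. The table gives other hours than the labels for the 20 healthy libraries, and the labels were used.

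Groups came from the labels. The shared title number was taken as the mouse, since the titles and replicate names pair the tissues though no label calls the number an animal. Deviations of same-numbered libraries from their group means correlated at 0.007 to 0.03 over 6992 genes in healthy mice and at 0.024 to 0.06 in sham mice. In healthy mice 1, 3 and 4, but not mouse 2, the region library correlated best with the whole kidney library of its own number. The correlations were weak, so the data themselves give little sign of pairing. Replicates are taken as separate mice. The p-values rest on 1 spread per gene, fitted over both tissues and moderated across genes. The coefficient of variation was 1.45 in the region and 0.198 in whole kidney, so they do not measure the spread between region mice alone.

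Genes were kept by filterByExpr (minimum count 10), grouped by tissue, so that counts in 1 tissue alone could admit a gene. They were tested in edgeR 4.0.16 (R 4.3.3) with TMM scaling, a robust quasi-likelihood F test and the mouse as a block. The threshold was a Benjamini-Hochberg adjusted p under 0.05. Standard errors are the fold change divided by the square root of F. CPM are TMM-scaled. A gene with no count is bounded at 3 counts per library, which covers counting error only. The sham comparison and the interaction over 16 libraries used the same test. Alternatives were DESeq2 1.42.0, its size factors, other filters, no block, thinned counts, totals without mitochondrial mRNAs and Kap, all 20 healthy libraries and leaving out each mouse. Library totals alone, limma 3.58.1 voom with a weight per tissue, and the counts per gene list under each setting were added after the data had been seen. The fits were tested on simulated data.

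The genes and lists were chosen with earlier results of these data known. Named are Kap, Slc34a1, Lrp2 and Cd36, members of the lists, the 12 highest and 12 lowest fold changes among genes that passed, averaged 20 CPM or more in the higher tissue and had 1 sign in 4 mice, and the 5 greatest CPM differences each way. Gene positions are from GENCODE M21 (GRCm38) and promoters from RefSeq (GRCm38.p6). The other compartments were used only for the levels given.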

Additional observations from a re-analysis of the deposited data

Results flagged for a closer look

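In 16 of 236 groups of 4 healthy libraries checked, the highest or lowest library lay apart from the other 3 by more than Dixon's 95% critical value, where chance gives about 1 in 20 groups. Of the 16, 12 were in the region (7 from mouse 4, 3 from mouse 3 and 2 from mouse 2) and 4 in whole kidney. All values are TMM-scaled CPM.

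Mouse 4 of the region was the high library for 7 genes. Emcn was at 594 against 58 to 81 in the other mice, Aqp2 at 496 against 129 to 177, C1rl at 411 against 87.1 to 133 and Slco1a1 at 697 against 342 to 375. The globins Hbb-bs, Hba-a1 and Hbb-bt were at 1210, 990 and 134, against 430 to 435, 292 to 324 and 44.3 to 53.3. Mouse 3 of the region was the high library for Cryab (203 against 27.5 to 48.4), S100a6 (51.4 against 2.24 to 5.97) and Slc14a2 (29.7 against 0 to 0.13). Mouse 2 of the region was high for Cdh5 (7.61 against 0.259 to 0.865) and was the only mouse with a count of Cd68 (0.149), which is below the floor of 3 counts.

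In whole kidney, mouse 4 was low for Slc22a18 (402 against 482 to 498) and high for Slc30a2 (33.9 against 21.1 to 22.6), mouse 1 was low for Cryab (189 against 280.1 to 297) and mouse 2 was high for Ppp1r1a (173 against 135 to 140.1).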

How the results depend on the processing

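Of 119 named genes tested, 84 were called (51 higher, 33 lower), and all 84 kept their direction under every alternative run. Called under every alternative were 8 higher genes (Gm22748, ENSMUSG00000065922, Neat1, Slc13a3, Slc34a1, Slc4a4, Spink1 and mt-Rnr2) and 1 lower gene (Hbb-bt). Without mouse 4, 19 higher and 22 lower calls were lost. The number of healthy calls (994) was 1505 with DESeq2 (190 higher, 1315 lower), 1765 with limma voom (300 and 1465), 609 with no filter, 75 at a mean of at least 10 CPM and 24 when all 20 healthy libraries shared 1 fit, and 148 to 960 on leaving out a mouse. Without the replicate block it was 1414. The sham number (1828) was 3339 with DESeq2 (167 and 3172), 185 at a mean of at least 10 CPM, 2206 without the replicate block, and 1178 to 2024 on leaving out a mouse. The interaction gave 0 to 1 on leaving out a mouse, 346 with DESeq2 and 0 without the replicate block. The sign of genes that were not called turned for Cubn (-0.05), mt-Co1 (-0.23) and mt-Nd5 (-0.17) with library totals alone, for Pecam1 (-0.56 to 0.004 on leaving out a mouse), and for Umod with all 20 libraries (0.06), DESeq2 size factors (0.19), DESeq2 (0.19), voom (0.04), no filter (0.04) and leaving out a mouse (-0.11 to 0.11, and 0.005 without mouse 4). Beyond fewer samples or genes, the cause was not tested. Values are least precise for genes under about 20 CPM in whole kidney, of which many had no count in a region library. Region libraries still held fewer genes when all 8 were thinned to equal depth (11112 to 12791 genes with a count, 18056 to 19409 in whole kidney).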
